A study of Mus musculus with 6 samples.

Results

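WNT proteins are secreted, lipid-modified signals that bind Frizzled receptors together with the co-receptors LRP5 and LRP6, or signal through alternative receptors such as ROR1, ROR2 and RYK. When the canonical branch is active, Dishevelled proteins inhibit a destruction complex of AXIN, APC and GSK3B, and beta-catenin accumulates and joins TCF and LEF factors at target genes. Secreted proteins of the SFRP and DKK families limit the signal outside the cell, while R-spondins, through LGR receptors, protect Frizzled proteins from removal by the ubiquitin ligases ZNRF3 and RNF43. Pancreatic fibroblasts both send and receive these signals.

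The 45 genes described here are the WNT ligands, the ligand acyltransferase gene Porcn, receptors, antagonists, R-spondins, core transducers, TCF/LEF factors and Nkd genes found in an RNAseq count table of 14831 genes. The rule reads gene symbols and no measured value, although the set was proposed with earlier results of these data known. The rule covers 67 annotated mouse genes, of which 22 are not listed in the table: Dkk1, Dkk4, Fzd9, Fzd10, Rnf43, Rspo4, Sfrp5, Wif1 and 14 Wnt genes (Wnt1, Wnt2, Wnt2b, Wnt3, Wnt3a, Wnt6, Wnt7a, Wnt7b, Wnt8a, Wnt8b, Wnt9b, Wnt10a, Wnt11 and Wnt16). All 45 listed genes passed the filter on low counts and were tested.

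The libraries were made from polyadenylated RNA of immortalized mouse pancreatic fibroblasts of mixed strain, grown to confluence in medium with calf serum. There were 3 wells with the genotype label WT and 3 with the label Gli2-/-;Gli3-/-, and GLI2 and GLI3 are transcription factors of the Hedgehog (HH) pathway. According to the study's methods, such lines grew out of the adult pancreas of mice with floxed Gli alleles, were immortalized, and were then infected with adenovirus, a GFP virus for the control cells and GFP and CMV-Cre viruses for the knockout cells, before infected cells were isolated by flow cytometry. The control cells also carried a dsRed lentivirus. The labels do not say whether the wells of a group came from more than 1 line, so the p-values below measure the spread between wells.

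Libraries labelled WT held 31728420 to 33905521 counts on genes and those labelled KO held 32781730 to 41035931. The counts of the targeted genes went against the labels: Gli2 had 809, 944 and 868 counts in wells labelled WT against 1932, 2316 and 1926 in wells labelled KO, and Gli3 had 392, 416 and 398 counts against 1434, 1637 and 1404 (edgeR adjusted p = 8.01e-10 and 2.10e-11). Counts pooled over all exons cannot show whether the floxed exons were lost. Genes that HH signaling induces were lower in the libraries labelled KO, with 40, 50 and 37 counts against 4, 10 and 13 for Gli1 and 7046, 7912 and 7834 against 2732, 3416 and 2851 for Ptch1 (edgeR adjusted p = 2.30e-05 and 2.16e-11). Groups are hence named by their labels only, and every direction below rests on those labels.

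Among markers of other cells, all 4 mesothelial genes (Msln, Upk3b, Wt1 and Lrrn4) were higher in the libraries labelled KO, with a summed level of 21.5 to 24.4 CPM (counts scaled to the size of the library) with the WT label and of 267.0 to 267.4 CPM with the KO label. The summed level of 8 listed fibroblast markers was 44822 to 47236 CPM against 36783 to 38533 CPM, and Col3a1, Pdgfra, Pdgfrb and Dcn were lower in the libraries labelled KO. Col1a1, Col1a2 and Vim had log2 fold changes of only 0.01, -0.19 and -0.13. Thy1 had a mean of 0.0525 CPM with the WT label and 0.390 CPM with the KO label and was not tested. Of 10 epithelial markers, 5 were listed, with a summed level of 20.2 to 22.7 CPM against 44.0 to 45.5 CPM, and Krt7, Cdh1 and Cela1 were higher, while Sox9 went from 8.51 to 6.03 CPM (log2 fold change -0.50, edgeR adjusted p = 1.73e-04) and Epcam, Krt18, Krt19, Cpa1 and Prss2 were not listed. None of 4 endothelial markers was listed, and no listed leukocyte, Schwann, pericyte or smooth muscle marker passed the limits given below. The part of these differences in the values below was not tested, and in bulk RNA fewer cells of a type and less RNA per cell cannot be told apart.

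Counts were compared in edgeR by its quasi-likelihood test. Fold changes are given as labelled KO relative to labelled WT on the log2 scale, with standard errors (SE). A gene was called different at a Benjamini-Hochberg adjusted p under 0.05, adjusted over all 14289 tested genes, and a change of at least 1.5-fold. CPM values use TMM scaling and are means ± SD of 3 libraries per group. With 3 libraries against 3, the smallest two-sided p of an exact permutation test on a single gene is 0.1.

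Of the 45 WNT genes, 17 were called, which is 37.8%, where 17.7% of all tested genes were called. Wnt5b, Wnt5a, Lgr4, Nkd1, Dkk3 and Lef1 fell in the libraries labelled KO, 6 of 45 genes beside 6.1% of all tested genes. Dkk2, Axin2, Tcf7, Sfrp4, Sfrp1, Wnt4, Sfrp2, Rspo1, Rspo2, Nkd2 and Ror1 rose, 11 of 45 beside 11.6% of all tested genes. The median log2 fold change of the 45 genes was 0.06 and their median absolute log2 fold change was 0.30, against 0.00 and 0.22 over all tested genes. The adjusted p alone was under 0.05 for 36 of the 45 genes, 19 higher and 17 lower, where it was so for 58.7% of all tested genes, 29.9% higher and 28.8% lower. The 2 groups of libraries did not overlap in CPM for 36 of the 45 genes, and for 64.2% of all tested genes.

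**Figure D1:**
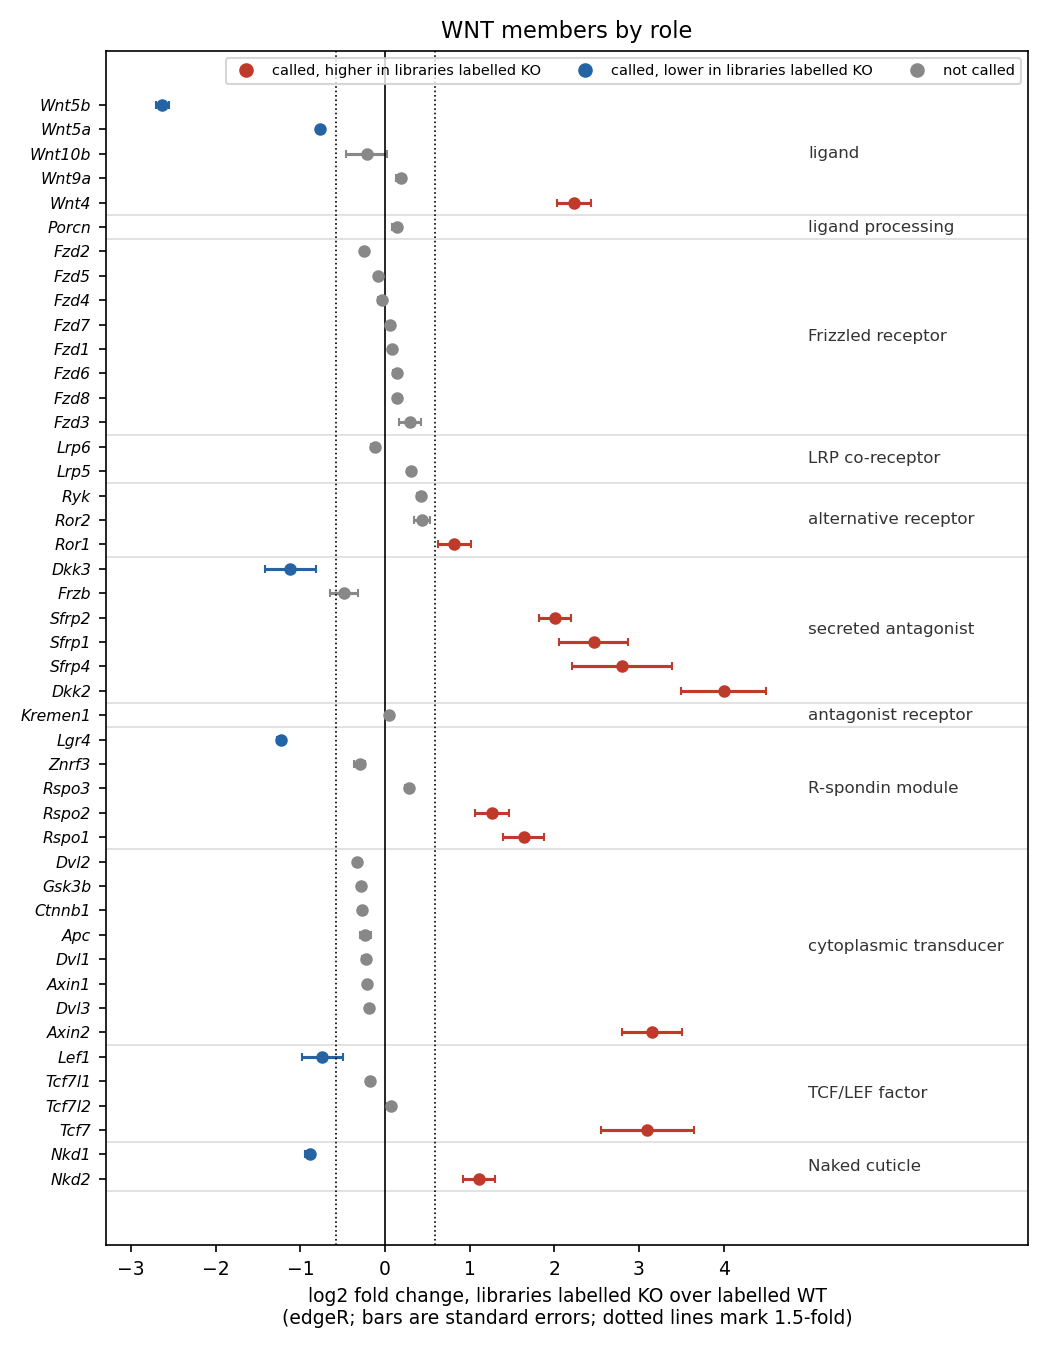
Log2 fold changes (x axis, labelled KO over labelled WT, points with standard error bars) of the 45 WNT genes, grouped by role, with dotted lines at 1.5-fold. All 8 Frizzled genes lie between -0.25 and 0.30, while secreted antagonists reach from -1.12 to 4.0.

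All 11 genes that rose were rare transcripts, between 0.381 and 2.74 CPM in the group where they were higher. Of the 6 that fell, Wnt5a, Lgr4, Nkd1 and Wnt5b were above 5 CPM in the libraries labelled WT, with 187 CPM for Wnt5a, while Dkk3 and Lef1 were under 1 CPM. Among the 29 WNT genes with at least 5 CPM in their higher group, 4 (13.8%) were called and all 4 were lower. Of the 10543 tested genes of such levels 11.9% were called, 769 (7.29%) higher and 487 lower. Among the 16 WNT genes with less than 5 CPM, 13 were called, 11 higher and 2 lower. Of the 3746 tested genes of such levels 34% were called and 23.8% were higher. The limit of 5 CPM was chosen after the values were seen. Of the 11 genes that rose, Dkk2, Sfrp1, Sfrp4, Axin2 and Tcf7 had fewer than 10 counts in every library labelled WT and entered the test only through the libraries labelled KO, where they had to be higher. Level and direction are therefore tied in part by the filter, and these shares are a description.

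**Figure D2:**
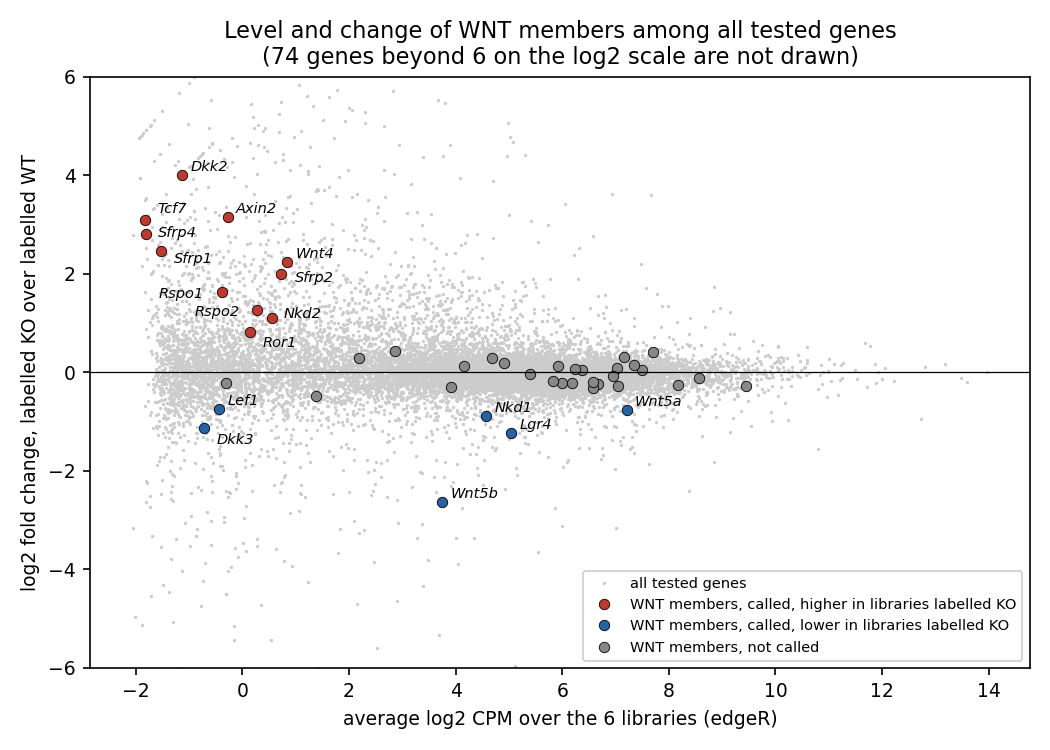
Average level (x axis, log2 CPM over the 6 libraries) and log2 fold change (y axis, labelled KO over labelled WT) of the WNT genes, drawn over all tested genes in grey, without 74 genes beyond 6 on the log2 scale. The 11 called genes that were higher in the libraries labelled KO all lie at the left, at low levels, and no WNT gene at higher levels is called higher.

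Upstream sequence is shown for 3 of the called genes whose 250 bases before a transcription start hold no annotated exon: Wnt5b, the gene that fell most, Lgr4, the receptor gene that fell, and Axin2, a feedback gene that beta-catenin induces and that rose. RefSeq windows on GRCm38.p6 matched 28 of the 45 genes by symbol, with 36 windows. CTTTGAT, a sequence bound by TCF/LEF factors, was searched on both strands and stood in 3.21% of 32851 windows of this length. Of the 36 windows of WNT genes it stood in 1, a window of Wnt5b. There it begins 71 bases before the start and is printed in capitals. GACCACCCA, a sequence bound by GLI factors, was found in 0.225% of windows and in none of the 28 WNT genes'. Wnt5b has 3 such windows, and the 1 printed was chosen because it holds the match. It lies within the annotated span of the gene. The counts do not show which start the cells used. A match is a description of the letters and not a site. The windows run 5′ to 3′ on the gene's strand, from chr6:119449387-119449636 (minus strand, 55.6% GC, 7 CpG dinucleotides) for Wnt5b, chr2:109917397-109917646 (plus strand, 55.6% GC, 10 CpG) for Lgr4 and chr11:108920099-108920348 (plus strand, 69.2% GC, 24 CpG) for Axin2.
Wnt5b: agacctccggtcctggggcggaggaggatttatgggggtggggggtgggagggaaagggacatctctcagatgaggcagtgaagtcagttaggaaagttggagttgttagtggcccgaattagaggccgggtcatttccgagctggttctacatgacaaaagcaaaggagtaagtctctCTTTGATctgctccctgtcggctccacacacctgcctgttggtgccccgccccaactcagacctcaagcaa
Lgr4: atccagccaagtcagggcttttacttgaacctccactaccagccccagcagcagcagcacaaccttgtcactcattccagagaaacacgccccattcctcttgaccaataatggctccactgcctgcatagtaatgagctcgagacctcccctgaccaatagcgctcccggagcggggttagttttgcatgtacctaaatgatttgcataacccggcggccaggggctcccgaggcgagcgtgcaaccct
Axin2: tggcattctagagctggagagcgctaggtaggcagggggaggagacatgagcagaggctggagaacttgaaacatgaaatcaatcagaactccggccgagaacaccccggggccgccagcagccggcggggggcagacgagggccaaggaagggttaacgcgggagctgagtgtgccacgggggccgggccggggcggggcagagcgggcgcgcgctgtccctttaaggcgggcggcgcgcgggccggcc

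The ligand transcripts of these fibroblasts were mainly those of Wnt5a and Wnt5b, which are best known for signaling that does not use beta-catenin, and Wnt9a. Both Wnt5 genes fell in the libraries labelled KO, Wnt9a differed by less than the fold limit, and the rare Wnt4 transcript rose. Wnt5b (chromosome 6 from 119432531 to 119544347 on GRCm38, as GENCODE M21 annotates it and as all gene positions are given) had 736, 747 and 805 counts in wells labelled WT against 129, 168 and 123 in wells labelled KO. All 3 counts labelled KO lie far below the lowest count labelled WT. The level went from 23.7 ± 1.47 to 3.80 ± 0.205 CPM, 6.20-fold lower (log2 fold change -2.63, SE 0.08, edgeR's quasi-likelihood test, Benjamini-Hochberg adjusted p = 2.10e-11).

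Wnt5a (chromosome 14 from 28504750 to 28527448) had 5782, 6331 and 5961 counts in wells labelled WT against 3891, 4584 and 3606 in wells labelled KO. The groups do not overlap, and within each the libraries lie close together, at 187 ± 2.26 and 109.7 ± 0.412 CPM. Wnt5a was 1.70-fold lower in the libraries labelled KO (log2 fold change -0.77, SE 0.03, edgeR adjusted p = 2.21e-10), close to the 1.5-fold limit. An annotated transcript on the other strand, Gm2670, covers 4.58% of the exon bases of Wnt5a, and whether counting used strand is not given in the sources used here.

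Wnt4 (chromosome 4 from 137277489 to 137299726), a ligand known from kidney and gonad development, had 25, 13 and 18 counts in wells labelled WT against 96, 118 and 88 in wells labelled KO. Its level rose from 0.583 ± 0.205 to 2.74 ± 0.0857 CPM, 4.71-fold (log2 fold change 2.24, SE 0.20, edgeR adjusted p = 1.00e-06), with every library labelled KO above every library labelled WT. Wnt9a had 920, 942 and 837 counts against 1187, 1270 and 1029, or 27.9 ± 1.58 and 31.7 ± 1.60 CPM, and its log2 fold change of 0.18 (SE 0.05, edgeR adjusted p = 0.00992) was under the fold limit. Wnt10b, a ligand of the canonical branch, had 20, 28 and 31 counts against 29, 23 and 25, and its groups overlap (log2 fold change -0.22, SE 0.25, edgeR adjusted p = 0.468). Porcn, which encodes the acyltransferase that WNT proteins need for secretion, went from 17.0 ± 0.124 to 18.7 ± 0.634 CPM (log2 fold change 0.14, edgeR adjusted p = 0.0394).

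Levels of different genes are compared only as CPM per kilobase of annotated exon. On that scale the 5 Wnt transcripts summed to 41.6, 41.4 and 41.7 in wells labelled WT but 26.4, 25.6 and 25.6 in wells labelled KO. Wnt5a stayed the most abundant ligand transcript, with 57.5% ± 0.901 of the sum in the libraries labelled WT and 54.3% ± 0.903 in those labelled KO. The second place changed. Wnt5b held 21.5% ± 1.25 and Wnt9a 20.2% ± 1.16 of the sum in the libraries labelled WT, shares that do not differ beyond their spread, while Wnt9a held 36.9% ± 1.21 and Wnt5b 5.54% ± 0.371 in those labelled KO. Wnt4 made up 0.334% ± 0.117 and 2.52% ± 0.101, so its rise added little to the summed ligand level.

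**Figure D3:**
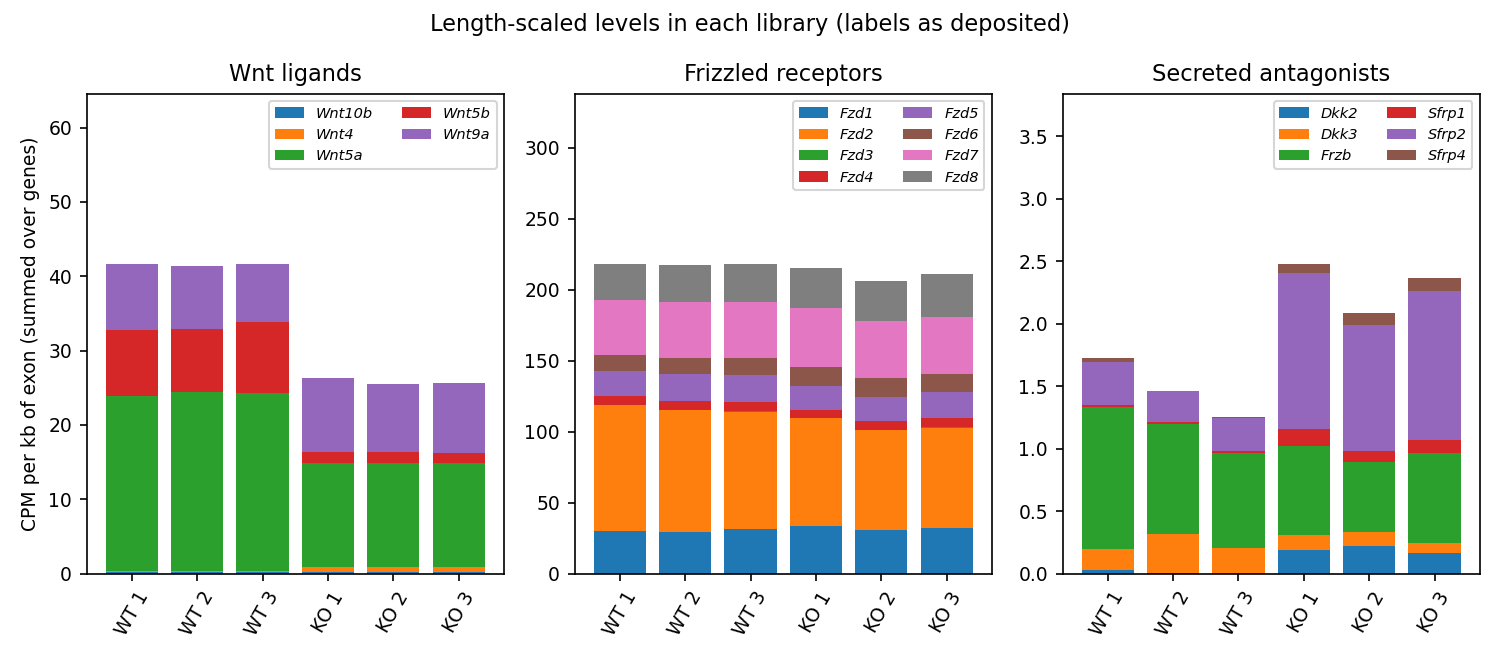
Stacked CPM per kilobase of exon (y axis, a separate scale in each panel) of Wnt ligand, Frizzled and secreted antagonist transcripts in each of the 6 libraries (x axis). The ligand sum is lower in the 3 libraries labelled KO, the Frizzled sum is nearly level, and the largest part of the antagonist sum is Frzb in the libraries labelled WT and Sfrp2 in those labelled KO.

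None of the 8 listed Frizzled genes was called, and their log2 fold changes ran from -0.25 to 0.30. Of all tested genes 17.7% were called, and of those with at least 5 CPM in their higher group 11.9%. The adjusted p was under 0.05 for 3 of the 8 Frizzled genes, and for 58.7% of all tested genes. Of these 3, Fzd6 (0.14, edgeR adjusted p = 0.00875) and Fzd8 (0.14, edgeR adjusted p = 0.00266) were slightly higher and Fzd2 slightly lower. Fzd2, the most abundant per length, had 10146, 10535 and 9687 counts in wells labelled WT against 9824, 10730 and 8491 in wells labelled KO. Since the libraries differ in depth, its counts overlap but its CPM values do not, at 314 ± 10.2 and 264 ± 11.6 (log2 fold change -0.25, SE 0.04, edgeR adjusted p = 7.97e-05). With upper-quartile or total-count scaling the adjusted p was under 0.05 for 6 of the 8, Fzd1, Fzd3 and Fzd7 also, and none was called. Fzd5, Fzd4, Fzd7, Fzd1 and Fzd3 had log2 fold changes of -0.08, -0.04, 0.06, 0.09 and 0.30 with adjusted p above 0.05. The order by CPM per kilobase was the same in both groups, Fzd2, Fzd7, Fzd1, Fzd8, Fzd5, Fzd6, Fzd4 and Fzd3, and the sum was 218 ± 0.300 against 211 ± 4.74. The share of Fzd2 in that sum was 39.3% ± 1.26 and 34.2% ± 0.928.

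Of the co-receptor genes, Lrp5 had 3877, 4392 and 4154 counts in wells labelled WT against 5557, 6544 and 5361 in wells labelled KO. Its CPM values do not overlap between the groups, at 128 ± 4.02 and 159 ± 3.13, and its log2 fold change was 0.31 (SE 0.03, edgeR adjusted p = 4.75e-06), under the fold limit. Lrp6 was more abundant per length, at 29.0 CPM per kilobase labelled WT against 13.2 for Lrp5, and its log2 fold change was -0.12 (SE 0.05, edgeR adjusted p = 0.0619).

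The alternative receptor genes all had higher values in the libraries labelled KO. Ryk, the most abundant of the 3, had 5367, 6003 and 5961 counts in wells labelled WT against 8826, 9816 and 7718 in wells labelled KO, or 179 ± 7.74 and 239.5 ± 8.46 CPM (log2 fold change 0.42, SE 0.04, edgeR adjusted p = 9.55e-07). Ror2, a receptor for WNT5A, went from 6.07 ± 0.461 to 8.24 ± 0.879 CPM (log2 fold change 0.44, SE 0.10, edgeR adjusted p = 0.00197). Both were under the fold limit and were not called. Ror1, which is rare in these cells, was called, with 21, 30 and 21 counts against 46, 57 and 42 (0.741 ± 0.134 and 1.31 ± 0.0493 CPM, log2 fold change 0.82, SE 0.19, edgeR adjusted p = 0.00290). Both Wnt5 genes thus fell in the libraries in which Ror1 rose and Ror2 and Ryk had higher values.

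Of the 6 listed antagonist genes 5 were called, where 17.7% of all tested genes were called. All 6 were under 5 CPM in both groups, and of tested genes at such levels 34% were called. The groups of libraries did not overlap for any of the 6, and for 64.2% of all tested genes. Dkk2, Sfrp1 and Sfrp4 entered the test only through the libraries labelled KO, where they had to be higher. Sfrp1, Sfrp2, Sfrp4 and Dkk2 rose in the libraries labelled KO, Dkk3 fell, and Frzb had lower values without passing the fold limit. Sfrp2 (chromosome 3 from 83766321 to 83774316), whose product binds WNT proteins, had 23, 18 and 18 counts in wells labelled WT against 95, 90 and 85 in wells labelled KO. It rose from 0.612 ± 0.107 to 2.47 ± 0.276 CPM, 4.01-fold (log2 fold change 2.01, SE 0.19, edgeR adjusted p = 1.47e-06). The annotated transcript Gm26771 on the other strand covers 16.1% of its exon bases.

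Dkk2, which encodes a ligand of LRP5 and LRP6, had 3, 1 and 0 counts in wells labelled WT against 25, 34 and 20 in wells labelled KO (edgeR log2 fold change 4.0, SE 0.51, adjusted p = 2.04e-05). With so few counts the ratio of the summed counts, scaled to library size, was 17.4 with an exact 95% interval of 6.52 to 65.3, which covers counting error only. Sfrp1 had 3, 3 and 2 counts against 21, 16 and 15, a ratio of 5.71 (2.69 to 13.9, edgeR adjusted p = 2.09e-04). Sfrp4 had 4, 0 and 1 counts against 11, 17 and 14, a ratio of 7.38 (2.92 to 23.9, edgeR adjusted p = 0.00127). Without replicate 1 labelled WT the log2 fold changes of Dkk2 and Sfrp4 were 5.25 and 4.35. Over all 6 fits that each left out a library they ran from 3.46 to 5.25 and from 2.22 to 4.35. Both genes entered these fits only through the libraries labelled KO, where they had to be higher. Their being called in every fit is therefore no further support. These 3 transcripts were nearly undetected in the libraries labelled WT and stayed below 1 CPM in both groups.

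Dkk3, a divergent member of its family, moved the other way, with 18, 35 and 22 counts in wells labelled WT against 14, 16 and 9 in wells labelled KO (0.770 ± 0.245 and 0.351 ± 0.0678 CPM, 2.18-fold lower, log2 fold change -1.12, SE 0.30, edgeR adjusted p = 0.00633). Frzb, also known as Sfrp3, had 115, 95 and 79 counts against 82, 76 and 77 (2.99 ± 0.613 and 2.16 ± 0.289 CPM, log2 fold change -0.48, SE 0.17, edgeR adjusted p = 0.0248). Per kilobase, Frzb made up 62.2% ± 3.16 of the summed antagonist level in the libraries labelled WT and 28.8% ± 1.72 in those labelled KO, while Sfrp2 made up 19.2% ± 1.99 and 49.6% ± 1.34. Sfrp2 thereby took the place of Frzb as the most abundant listed antagonist transcript. The summed level remained low, at 1.48 ± 0.236 and 2.31 ± 0.202 CPM per kilobase. Kremen1, the gene of a DKK receptor, did not pass the test (81.2 ± 2.03 and 84.0 ± 1.30 CPM, log2 fold change 0.05, edgeR adjusted p = 0.230).

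Lgr4 fell in the libraries labelled KO, while Rspo1 and Rspo2 rose and Rspo3 stayed within the fold limit. Lgr4 (chromosome 2 from 109917647 to 110014257), the receptor gene whose upstream window is printed above, had 1411, 1617 and 1496 counts in wells labelled WT against 688, 838 and 661 in wells labelled KO. The groups are far apart, at 46.7 ± 1.63 and 19.9 ± 0.370 CPM, 2.35-fold lower in the libraries labelled KO (log2 fold change -1.23, SE 0.04, edgeR adjusted p = 1.43e-10). Rspo1 had 10, 12 and 10 counts against 35, 40 and 39, a rise from 0.330 ± 0.0245 to 1.04 ± 0.121 CPM (log2 fold change 1.64, SE 0.24, edgeR adjusted p = 7.11e-05). Rspo2 had 22, 23 and 19 counts against 47, 74 and 55, from 0.661 ± 0.0578 to 1.59 ± 0.234 CPM (log2 fold change 1.27, SE 0.20, edgeR adjusted p = 1.33e-04).

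Rspo3 was by far the most abundant R-spondin transcript, with 96.2% ± 0.332 of the summed CPM per kilobase of the 3 genes in the libraries labelled WT and 91.5% ± 0.636 in those labelled KO. It had 677, 810 and 759 counts in wells labelled WT against 991, 1163 and 953 in wells labelled KO, and its log2 fold change of 0.28 (SE 0.05, edgeR adjusted p = 3.92e-04) was under the fold limit. Gm48159, annotated on the other strand, covers 13.1% of its exon bases. Znrf3, the gene of a ubiquitin ligase that removes Frizzled and that beta-catenin can induce, had 488, 601 and 515 counts against 458, 590 and 435 (log2 fold change -0.30, SE 0.07, edgeR adjusted p = 0.00207).

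**Figure D4:**
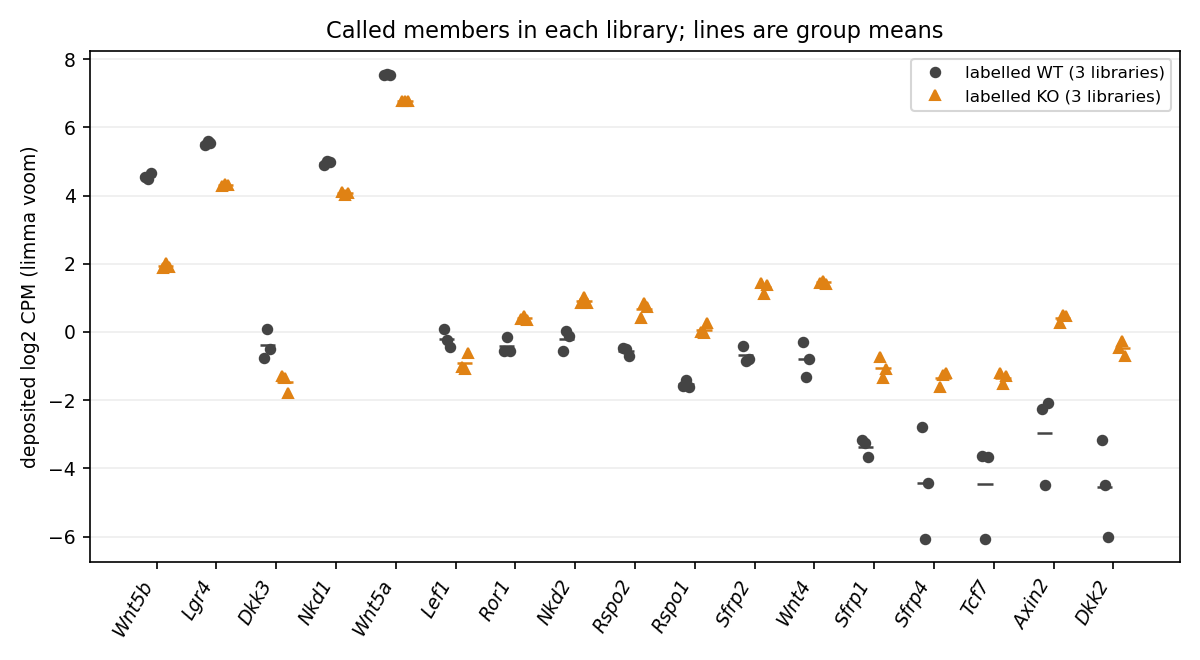
Deposited log2 CPM (y axis) of the 17 called WNT genes (x axis, ordered by log2 fold change) in each library, circles for labelled WT and triangles for labelled KO, with short lines at the group means. For every one of the 17 genes the 3 libraries labelled KO lie wholly above or wholly below the 3 labelled WT. The 17 were chosen by their calls in these same libraries, and in CPM the groups did not overlap for 64.2% of all tested genes. Dkk2, Axin2, Tcf7 and Sfrp4 show the widest spread among the libraries labelled WT, at counts near 0.

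Of the 8 transducer genes only Axin2 was called, where 17.7% of all tested genes were called. Axin2 (chromosome 11 from 108920349 to 108950783), which beta-catenin induces and whose product limits the signal, had 6, 1 and 7 counts in wells labelled WT against 42, 58 and 45 in wells labelled KO. The 2 groups do not overlap, and even in the libraries labelled KO the level was only 1.31 ± 0.111 CPM. Its log2 fold change was 3.15 (SE 0.35, edgeR adjusted p = 6.63e-06), and the ratio of summed counts was 9.10 (exact 95% interval 5.25 to 17.1). The other 7 transducer genes each had an adjusted p under 0.05 with a lower level in the libraries labelled KO, and none reached the fold limit. Of all tested genes 58.7% had an adjusted p under 0.05, 28.8% with a lower level. Ctnnb1, the beta-catenin gene, had 23909, 25806 and 24327 counts against 22644, 26489 and 20733, which is 765 ± 4.64 and 634 ± 5.81 CPM (log2 fold change -0.27, SE 0.03, edgeR adjusted p = 1.86e-06). The Dishevelled genes Dvl1, Dvl2 and Dvl3 had log2 fold changes of -0.22, -0.33 and -0.19, and the destruction complex genes Axin1, Apc and Gsk3b had -0.22, -0.23 and -0.28. Apc was the only one of these 7 transducer genes whose CPM values overlap between the groups, which did not overlap for 64.2% of all tested genes. The exons of Ctnnb1 and Dvl2 overlap those of listed genes on the other strand, Ulk4 over 14.6% of the exon bases of Ctnnb1 and Acadvl over 18.3% of those of Dvl2.

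Among the TCF/LEF genes, the rare Tcf7 and Lef1 moved in opposite directions and the abundant Tcf7l1 and Tcf7l2 stayed within the fold limit. Tcf7 had 2, 0 and 2 counts in wells labelled WT against 15, 14 and 13 in wells labelled KO (edgeR log2 fold change 3.10, SE 0.55, adjusted p = 3.49e-04), a ratio of summed counts of 9.23 with an exact 95% interval of 3.35 to 35.4. Lef1 had 33, 28 and 23 counts against 17, 19 and 21 (0.870 ± 0.169 and 0.524 ± 0.0978 CPM, 1.67-fold lower, log2 fold change -0.74, SE 0.25, edgeR adjusted p = 0.0208). The call of Lef1 was lost under several alternatives: DESeq2 gave an adjusted p of 0.0907, and without replicate 1 labelled WT, replicate 1 labelled KO or replicate 2 labelled KO edgeR gave 0.0880, 0.0606 and 0.0822. Gm43352, on the other strand, covers 13.7% of its exon bases. Tcf7l1 had a log2 fold change of -0.17 (edgeR adjusted p = 0.00171) and Tcf7l2 of 0.07 (edgeR adjusted p = 0.150), and together they made up nearly all of the summed TCF/LEF level per kilobase, 64.2% and 35.3% in wells labelled WT against 60.1% and 39.0% in wells labelled KO.

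The Naked cuticle genes, whose products bind Dishevelled and dampen signaling, also went opposite ways. Nkd1 (chromosome 8 from 88521354 to 88594884) had 928, 1072 and 1007 counts in wells labelled WT against 604, 677 and 560 in wells labelled KO, or 31.1 ± 1.27 and 16.8 ± 0.444 CPM, 1.86-fold lower with no overlap (log2 fold change -0.89, SE 0.05, edgeR adjusted p = 1.12e-08). Nkd2 had 21, 34 and 29 counts against 64, 84 and 59, and rose from 0.865 ± 0.177 to 1.87 ± 0.126 CPM (log2 fold change 1.11, SE 0.18, edgeR adjusted p = 1.99e-04).

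Other genes of the pathway were taken from a list of 88, of which 79 were listed and 77 tested. Of these, 21 were called, 14 higher and 7 lower, or 27.3% beside the 17.7% of all tested genes, and their median log2 fold change was 0.04. Gpc3, Lypd6 and Prickle1 had fewer than 10 counts in every library labelled WT, and Prickle3 in every library labelled KO. Each of them entered the test only through the other group, where it had to be higher. Lgr6 had 18, 4 and 5 counts in wells labelled WT against 60, 78 and 53 in wells labelled KO. Nfatc2 had 10, 11 and 6 against 25, 23 and 26. Both were called higher, with fewer than 10 counts in part of the libraries labelled WT. With at least 10 counts in every library, where none of the genes just named was tested, 15 genes of this list were called. Genes of secretion and ligand release had 4 of 7 called, 2 in each direction. Those of receptors and membrane regulators had 6 of 9 called, 5 higher, with Lgr6 and Lypd6 among them, and 1 lower. Among destruction complex and kinase genes 5 of 22 were called, among nuclear partners 2 of 18 and among genes of the planar polarity and calcium branches 4 of 21. The glypican gene Gpc3 had 0 counts in each library labelled WT against 259, 338 and 270 in wells labelled KO, which is a rise of at least 84.5-fold against a floor of 3 counts per library. Gpc6, another glypican gene, fell from 6698, 7778 and 7590 counts to 3576, 4531 and 3782 (log2 fold change -1.08, SE 0.05, edgeR adjusted p = 1.45e-09).

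Of the 3 Dishevelled-binding Dact genes, Dact1 and Dact3 rose and Dact2 fell. Dact1 had 184, 196 and 200 counts in wells labelled WT against 564, 605 and 502 in wells labelled KO (log2 fold change 1.34, SE 0.07, edgeR adjusted p = 6.56e-09), and Dact3 had 532, 508 and 529 against 1451, 1609 and 1309 (log2 fold change 1.29, SE 0.05, edgeR adjusted p = 4.24e-10). Dact2, named outside the rule for named genes after its values were seen, had 114, 135 and 139 against 90, 107 and 91 counts, and its CPM values do not overlap, at 4.01 ± 0.359 and 2.62 ± 0.117 (log2 fold change -0.61, SE 0.12, edgeR adjusted p = 5.42e-04). Lrp4, a relative of Lrp5 and Lrp6 that can bind the antagonist sclerostin, had 697, 756 and 694 counts against 205, 248 and 240 (log2 fold change -1.81, SE 0.08, edgeR adjusted p = 7.93e-10). Trabd2b, the gene of a protease that inactivates WNT proteins, had 508, 503 and 460 counts against 325, 396 and 316 (log2 fold change -0.69, SE 0.07, edgeR adjusted p = 1.66e-06).

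A list of 33 genes known as targets of beta-catenin in various tissues was read as the last step of the pathway, 6 of them WNT genes, of which Rnf43 is not in the count table. Of 25 listed and tested targets, 13 were called, 9 higher and 4 lower, beside 17.7% of all tested genes, and their median log2 fold change was 0.38. Axin2, Tcf7 and Ephb2 had fewer than 10 counts in every library labelled WT. They entered the test only through the libraries labelled KO, where they had to be higher. With at least 10 counts in every library, 10 targets were called. Without the 5 tested WNT genes, 9 of 20 were called, 7 higher and 2 lower, and of those 7 Lgr5, Apcdd1 and Dact1 also count among the 14 higher genes of the other pathway list. Of the 5 WNT genes themselves, Axin2 and Tcf7 rose, as the filter required of them. Nkd1 and Lef1 fell, and Znrf3 was lower without reaching the fold limit (log2 fold change -0.30, edgeR adjusted p = 0.00207).

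Fgf18, a growth factor gene, had 135, 157 and 166 counts in wells labelled WT against 508, 580 and 523 in wells labelled KO (log2 fold change 1.63, SE 0.09, edgeR adjusted p = 6.77e-09). Lgr5, a relative of Lgr4 that also binds R-spondins, had 80, 94 and 100 counts against 224, 244 and 172, with no overlap (log2 fold change 1.04, SE 0.12, edgeR adjusted p = 7.10e-06). Lgr5 thus rose, from 2.83 to 5.80 CPM, in the libraries where Lgr4 fell from 46.7 to 19.9 CPM. In the other direction, Bambi, a decoy receptor gene of the TGF-beta pathway, had 264, 270 and 300 counts against 128, 155 and 131 (log2 fold change -1.20, SE 0.09, edgeR adjusted p = 2.51e-07). Vcan, which encodes the matrix proteoglycan versican, had 7601, 8370 and 8351 counts against 4302, 4489 and 4083 (log2 fold change -1.10, SE 0.05, edgeR adjusted p = 1.13e-09).

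**Figure D5:**
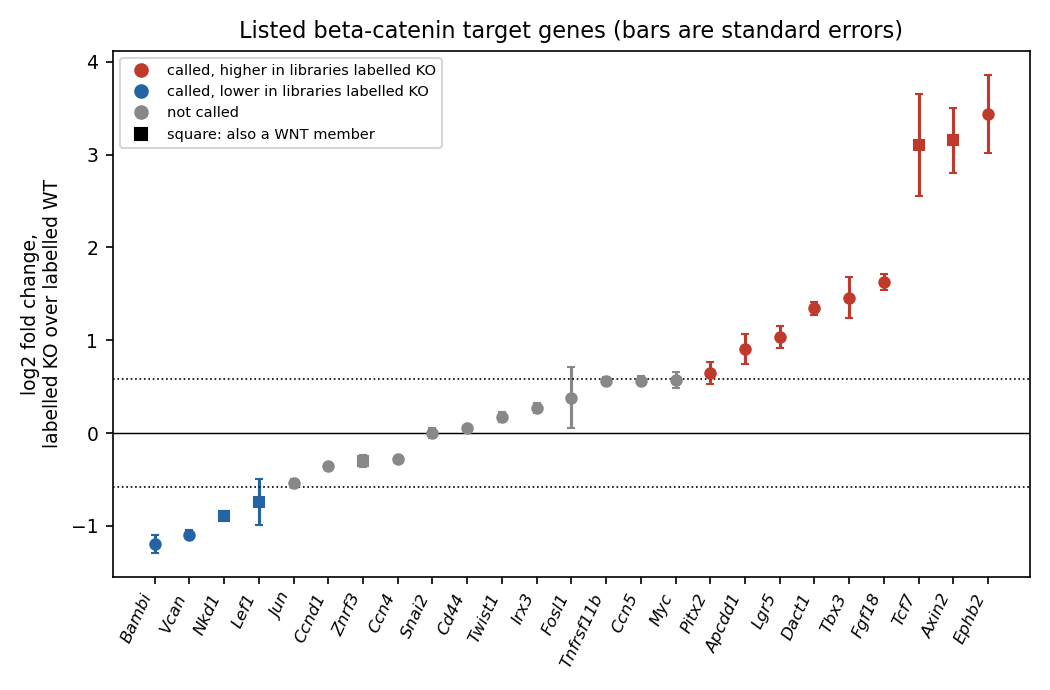
Log2 fold changes (y axis, labelled KO over labelled WT, with standard error bars) of the 25 tested beta-catenin target genes (x axis), squares for those that are also WNT genes and dotted lines at 1.5-fold. Axin2 and Tcf7 stand near the upper end and Nkd1 and Lef1 near the lower, with targets of either direction around them.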

How the data were processed

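RNAseq of 6 libraries, 3 labelled WT and 3 labelled KO, was analysed. The authors deposited raw counts of reads per gene and log2 CPM values from limma's voom. Each deposited log2 value could be rebuilt from its count, with 0.5 added, and 1 scaling factor per library. The submitters' processing notes name STAR 2.7.2b, featureCounts, limma and GRCm38.p6. Strand settings and the annotation are not given in the sources used here. Of the identifiers, 14822 of 14831 matched GENCODE M21 without the version, which gave positions and exon lengths.

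Counts were tested in R 4.3.3 with edgeR 4.0.16 (TMM, filterByExpr, quasi-likelihood test, Benjamini-Hochberg adjustment over 14289 genes). The common biological coefficient of variation was 3.74%. No pair of libraries in a group differed by less than sampling noise (chi-square per degree of freedom 2.50 to 7.74), so all were kept. The WNT genes, lists, 1.5-fold limit and tests were chosen with earlier results of these data known. All 45 WNT genes are accounted for, and from the other lists up to 3 called genes in each direction were named, taking the largest changes where the higher group never had fewer than 100 counts. Lypd6, Prickle1, Prickle3, Lgr6, Nfatc2 and Ephb2 were named outside that rule, for their low counts. A fold against a group at 0 used a floor of 3 counts per library. The scripts were tested on simulated data. Alternatives were scaling by RLE, by the upper quartile or by total counts, no count filter, at least 10 counts in every library, other fold limits, DESeq2 1.42.0, limma 3.58.1 (voom on counts, and the deposited log2 values), and leaving out each library.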

Additional observations from a re-analysis of the deposited data

How the results depend on the processing

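Of 624 values of single WNT genes under the alternatives, 617 kept their direction and were called, or not called, as before. The adjusted p alone crossed 0.05 in 33 of the 624, values of 12 genes that include Porcn, Wnt9a, Frzb, Lef1 and 5 Frizzled genes, and with upper-quartile or total-count scaling it was under 0.05 for 41 of the 45 genes. Fzd4 changed sign, to 0.021 with upper-quartile scaling and to 0.0033 without KO replicate 1 (range -0.077 to 0.0033 when each library was left out), and did not pass the test in either. Lef1 lost its call under DESeq2 and 3 times when a library was left out, as given above, and Frzb passed the fold limit without labelled WT replicate 3 (-0.60, adjusted p = 0.00851). With at least 10 counts in every library, 6 WNT genes were called higher, since Dkk2, Sfrp1, Sfrp4, Axin2 and Tcf7, and among the lower genes Dkk3, were not tested there. Without a fold limit 19 WNT genes were called higher and 17 lower, with 53 of the other pathway genes, 22 targets and 8391 genes of the whole table. At 2-fold 3 WNT genes were called lower and 1456 genes in the whole table. When each library was left out in turn, 11 WNT genes were called higher each time, 5 to 7 lower, 20 to 22 other pathway genes, 12 to 15 targets and 2501 to 2618 genes of the whole table. Among those 11, Dkk2, Sfrp1, Sfrp4, Axin2 and Tcf7 entered the fits only through the libraries labelled KO, where they had to be higher. The largest shift of the median of all genes by another scaling was 0.06 on the log2 scale. A floor of 3 counts is 0.0720 to 0.0957 CPM, so differences among transcripts under this level were not detectable. No paired analysis was possible because the labels give no replicate numbers shared between the groups.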
